A study of Mus musculus with 16 samples.

Results

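Amino acid exchangers of the SLC7 family and their shared partner chain were followed in mouse embryonic stem (ES) cells that were leaving naive pluripotency. The set was chosen by gene symbol and holds 9 of the 27179 genes in the count table: Slc3a2, which encodes the heavy chain, the light chain genes Slc7a5, Slc7a6, Slc7a7, Slc7a8 and Slc7a11, and the cationic carrier genes Slc7a1, Slc7a2 and Slc7a3. All 9 passed the filter on low counts. RNA of mouse ES cells was sequenced in 16 libraries, 2 for each of 8 groups. In the first 4 groups the cells had been kept in 2i/LIF, a serum-free medium with leukaemia inhibitory factor (LIF) and 2i, which is 3 uM of the GSK3 inhibitor CHIR99021 with 1 uM of the MEK inhibitor PD0325901. The other 4 groups came from serum/LIF+2i, which has the same inhibitors and LIF in a medium with 10% serum. Cells of each medium were collected at 0 h, still in the inhibitors and LIF, or 12, 24 or 40 h after a change to serum-free medium lacking all of these (exit). All media held 2 mM glutamine. Below, the groups are called the 2i/LIF arm and the serum arm, by the medium the cells came from. The base of the exit medium differed between the arms, since that of the serum arm was mixed from glutamine-free DMEM with added glutamine, and the other arm kept its own base medium. After 0 h, therefore, the maintenance medium and the exit base cannot be told apart. All cells had first been grown in serum/LIF and then adapted to their medium, and the labels name neither a line nor a genotype.

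The SLC7 family moves amino acids across the plasma membrane in 2 forms. A light chain is the transport path of a heterodimer and is linked by a disulphide bond to the SLC3A2 heavy chain (CD98 or 4F2hc), which carries it to the cell surface. Such dimers are exchangers that take in 1 amino acid and release another. The cationic carriers work without a heavy chain and let arginine, lysine and ornithine cross the membrane. In ES cells this uptake supplies protein synthesis, glutathione and polyamines.

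The libraries held 5931381 to 11142744 counts. At this depth the floor of 3 counts lay at or below 0.517 CPM (counts scaled to library size, with trimmed mean of M values factors), and every member lay above it in every library, with the lowest counts, 17, in Slc7a2, Slc7a8 and Slc7a11. Between replicates Pearson's r of log2 CPM, over the 14288 genes that passed the filter, was 0.991 to 0.995. Nothing in the labels says that replicates came from separate cultures, so the p-values measure the spread between these libraries, which may be technical. Summed over 6 pluripotency markers the level was 2894 to 3329 CPM in the 0 h libraries, against 1237 to 1308 CPM after 40 h. At 40 h 4 of these markers fell in each medium, Utf1 rose, by 4.33 and 2.99 on the log2 scale, and Pou5f1 did not pass the test in either. Marker sums of other lineages lay far lower, at 1.49 to 6.48 CPM for primitive endoderm, 3.65 to 22.2 CPM for trophectoderm, 1.78 to 10.5 CPM for fibroblasts with Postn at 0, 32.3 to 132 CPM for neural cells and 0.83 to 35.8 CPM for mesoderm. From 0 to 40 h the neural sum went from 51.5 in both 0 h libraries to 98.2 and 108 CPM after 40 h in the 2i/LIF arm and from 32.3 and 37.5 to 132 in both in the serum arm. The mesoderm sum went the other way, from 31.4 and 35.8 to 1.77 and 1.88 CPM in the 2i/LIF arm and from 19.7 and 22.8 to 1.90 and 2.90 in the serum arm. That of trophectoderm went from 18.8 and 22.2 to 4.21 and 4.26 CPM and from 16.7 and 20.9 to 5.42 and 5.43. The fibroblast sum, at low levels, was 3.62 and 4.10 CPM before and 6.25 and 8.89 after in the 2i/LIF arm, and 2.50 and 2.64 before and 6.21 and 6.48 after in the serum arm. For primitive endoderm the sum was lower at 40 h in the 2i/LIF arm (2.76 and 4.89 CPM, from 5.01 and 5.34) and higher in the serum arm (5.26 and 6.48, from 3.82 in both). The part of these sums in the results was not tested. In bulk RNA, fewer cells of a type and less RNA per cell cannot be told apart.

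Most of the set moved on exit. By edgeR's quasi-likelihood test with Benjamini-Hochberg adjustment over 14288 genes, a member was called at an adjusted p under 0.05. At 12 h in the 2i/LIF arm, 4 members rose and 1 fell, 5 of 9 in all, where 44.7% of all tested genes were called. At 24 h 6 rose and 3 fell, against 58.8% of all genes. At 40 h 6 rose and 2 fell, against 68.8%. For the serum arm the counts were 5 higher and 3 lower at 12 h, then 6 higher and 3 lower at both later times, where 51.2%, 64.4% and 70.5% of all genes were called. A call by itself was common in these data, and so were groups whose libraries did not overlap. Between 40 and 0 h, 41.7% of all tested genes lay higher without overlap and 41.6% lower in the 2i/LIF arm. In the serum arm it was 41.8% each way, and between the arms at 12 h 31.8% each way. With a log2 fold change of at least 1 also required, 4 members rose and 1 fell at 40 h in the 2i/LIF arm, where 15.5% of all genes rose and 13.9% fell by that rule. The serum arm had 5 and 1, where 16.8% rose and 12.7% fell. The median log2 fold change of the 9 members at 40 h was 0.99 in the 2i/LIF arm and 1.15 in the serum arm, beside 0.0052 and -0.0032 over all genes. The comparisons with 0 h in an arm share its 0 h libraries.

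**Figure D1:**
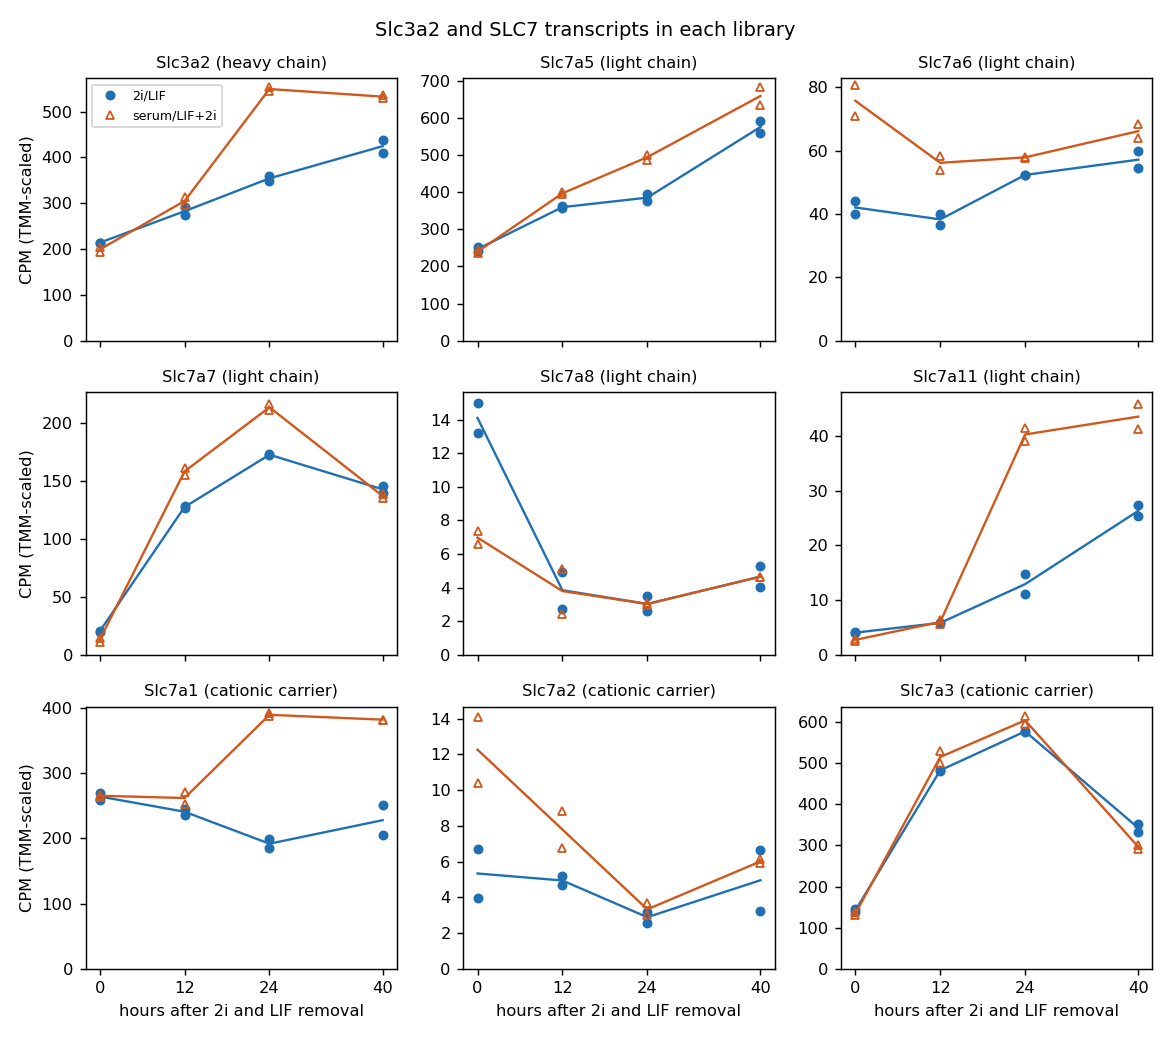
Levels of the 9 members in each library (CPM, linear axes from 0) against hours after removal of 2i and LIF, with filled circles for 2i/LIF and open triangles for serum/LIF+2i. Lines join the means of the 2 libraries. Slc3a2, Slc7a5, Slc7a7, Slc7a11 and Slc7a3 lay above their 0 h libraries at every later time in both media, and for Slc7a1 the libraries of the media overlapped at 0 h and at no later time.

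The heavy chain gene Slc3a2 (Entrez 17254, chr19:8706882-8723369 on the minus strand of GRCm38) rose in both media. Its 2i/LIF arm levels were 214 and 213 CPM at 0 h, 273 and 292 at 12 h, 359 and 349 at 24 h, and 409.8 and 439 at 40 h. From the serum arm the levels were 194 and 204 CPM, then 296 and 313, then 554 and 544, and finally 535 and 529.6. Within a medium the libraries of successive times did not overlap, with the lowest level at 0 h, and the highest group was the serum arm at 24 h. The log2 fold change at 40 h was 0.99 ± 0.04 (SE) in the 2i/LIF arm (edgeR, adjusted p = 1.42e-44) and 1.42 ± 0.04 in the serum arm (adjusted p = 1.47e-61), or 1.98-fold and 2.68-fold. From 24 to 40 h the level rose by a further 0.26 ± 0.04 in the 2i/LIF arm (edgeR, adjusted p = 1.27e-08), and in the serum arm the difference was -0.04 (95% interval -0.12 to 0.03, adjusted p = 0.324). Whether these last steps differ was not tested.

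Slc7a5 (Entrez 20539, chr8:121881146-121907686, minus strand) encodes LAT1, which exchanges glutamine from inside the cell for leucine and other large neutral amino acids. Levels in the 2i/LIF arm were 253 and 240.1 CPM at 0 h, 357 and 362 at 12 h, 376 and 394 at 24 h, and 559 and 592 at 40 h. From the serum arm they were 236 and 243, 394 and 399.6, 487 and 501, and 684 and 634 CPM. Within a medium each time lay above the one before without overlap, with the highest levels at 40 h. At 40 h the log2 fold change was 1.22 ± 0.04 (SE) in the 2i/LIF arm (edgeR, adjusted p = 4.34e-55) and 1.46 ± 0.04 in the serum arm (adjusted p = 4.13e-64). The smallest step was from 12 to 24 h in the 2i/LIF arm, at 0.10 ± 0.04 (edgeR, adjusted p = 0.0421). That call was lost without either 12 h library (0.08 and 0.10) or replicate 2 at 24 h (0.06), and with DESeq2 (0.10, adjusted p = 0.163), DESeq2 size factors (0.10) or no filter (0.09).

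Slc7a11 (Entrez 26570, chr3:50364936-50499087, minus strand) encodes xCT, which takes in cystine in exchange for glutamate and so feeds glutathione synthesis. Its promoter window and that of Slc3a2 are shown because these genes had the most alike patterns of any pair of members, and because motif matches were found in the first and not in the second. Both runs are from RefSeq (GRCm38.p6), read 5′ to 3′ along the gene's minus strand, from 120 to 11 bases before the annotated start. Capitals mark matches to TGATGNAA, the CEBP-ATF response element through which ATF4 is known to act.
Slc7a11, chr3:50443624-50443733: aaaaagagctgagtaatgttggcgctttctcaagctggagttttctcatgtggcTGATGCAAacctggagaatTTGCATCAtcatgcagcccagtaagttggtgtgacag
Slc3a2, chr19:8713908-8714017: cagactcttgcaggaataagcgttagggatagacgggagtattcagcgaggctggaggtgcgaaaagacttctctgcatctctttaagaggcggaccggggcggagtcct
The Slc7a11 window holds the motif on both strands, in opposite orientation and 11 bases apart. A match on either strand was present in 3.969% of the 32851 promoter windows of 300 bases. At least 2 matches were present in 23 windows, or 0.07001%. In the whole 300-base window of Slc3a2 none of the 3 motifs searched was present. The others were the E box CACGTG, found in 7.15% of windows, and the antioxidant response element TGACNNNGC, in 12.39%. All motifs were searched on both strands, and no window of a member held matches to more than 1 of them. The window of Slc3a2 was its only one and lies inside the gene. Its 5′ edge is at base 8714147, whereas the gene reaches 5′ to base 8723369. The far 5′ end of Slc3a2 was therefore not searched. The Slc7a11 window likewise lies inside its gene, which reaches 5′ to base 50499087. A match is a run of letters and shows no binding.

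At 40 h Slc7a11 had the largest log2 fold change of the 9 members in the serum arm and, after Slc7a7, the next largest in the 2i/LIF arm. The 2i/LIF arm libraries gave 4.14 and 3.95 CPM at 0 h, 5.89 and 5.75 at 12 h, 14.7 and 11.1 at 24 h, and 25.3 and 27.3 at 40 h. From the serum arm the values were 2.94 and 2.50, 6.35 and 5.64, 39.2 and 41.4, and 41.3 and 45.8 CPM. The gene was scarce at 0 h in both media, and at 24 h the lower library from the serum arm stood above both libraries of the 2i/LIF arm at 40 h. The 40 h log2 fold change was 2.70 ± 0.18 (SE) in the 2i/LIF arm (edgeR, adjusted p = 1.50e-27) and 3.99 ± 0.17 in the serum arm (adjusted p = 2.72e-45), or 6.49-fold and 15.9-fold. Most of the rise in the serum arm fell between 12 and 24 h, where the log2 fold change was 2.75 ± 0.14 (edgeR, adjusted p = 4.53e-38), and the next step was 0.11 (95% interval -0.06 to 0.28, adjusted p = 0.298). In the 2i/LIF arm the steps after 12 h were 1.15 ± 0.19 and 1.02 ± 0.13 (edgeR, adjusted p = 1.70e-07 and 1.10e-10). The 12 h change in the 2i/LIF arm, 0.53 ± 0.26, was not called (adjusted p = 0.0864).

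Slc7a7 (Entrez 20540, chr14:54369442-54420068, minus strand) encodes y+LAT1, which exchanges cationic amino acids for neutral ones together with sodium. One of its 5 RefSeq promoter windows held TGATGNAA at 2 places, starting 141 bases and 1 base before the annotated start. Of the lower match only the first base lies before that start. Another window held the lower match alone, 243 bases before its own start, and the remaining windows held none. The stretches around the 2 matches, which are in capitals, are given because the gene rose more than any other member at 12 h.
Slc7a7 upper match, chr14:54418067-54418094: gcttgggctTGATGAAAggttcactggg
Slc7a7 lower match, chr14:54417927-54417954: cctagaagcTGATGCAAcagcttccccg
Unlike the matches of Slc7a11, these lie in the same orientation.

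The level of Slc7a7 in the 2i/LIF arm went from 19.8 and 20.5 CPM at 0 h to 127 and 129 at 12 h, 173 in each library at 24 h, and 146 and 139.8 at 40 h. From the serum arm it went from 10.9 and 14.7 CPM to 156 and 161, then 211 and 216, then 139 and 135. The level had its peak at 24 h in both media, and at 40 h the libraries lay below it without overlap. The log2 fold change at 12 h was 2.66 ± 0.08 (SE) in the 2i/LIF arm (edgeR, adjusted p = 6.51e-58) and 3.63 ± 0.08 in the serum arm (adjusted p = 4.04e-71). At 24 h it reached 3.10 ± 0.08 and 4.06 ± 0.08, or 8.56-fold and 16.7-fold. From 24 to 40 h it fell by 0.27 ± 0.05 and by 0.64 ± 0.05 (edgeR, adjusted p = 3.39e-06 and 9.65e-25). Oxa1l lies on the other strand and shares 232 exon bases with Slc7a7, 8.82% of the exon bases of Slc7a7, and no source says whether the counting used strand. Oxa1l went from 133 ± 2.28 to 99.6 ± 3.39 CPM (SD, n = 2) in the 2i/LIF arm and was lower at 40 h in both media, opposite to Slc7a7.

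**Figure D2:**
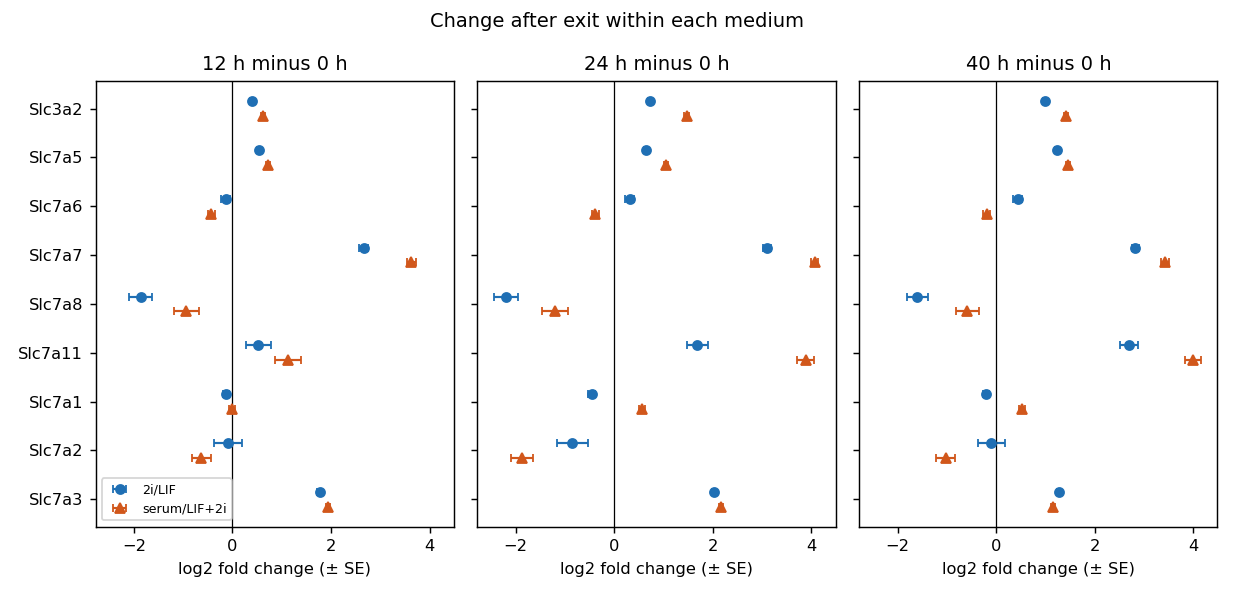
Fitted log2 fold changes of each member at 12, 24 and 40 h against 0 h of the same medium, with bars of 1 SE, circles for 2i/LIF and triangles for serum/LIF+2i. Slc7a7 stands farthest to the right at 12 h, and Slc7a11 in serum/LIF+2i reaches 3.99 at 40 h. Slc7a6 and Slc7a1 lie on opposite sides of 0 in the media at 24 and 40 h.

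The other light chains did not rise in both media. Slc7a6 (Entrez 330836, chr8:106168219-106198714, plus strand) encodes y+LAT2, a second exchanger of cationic for neutral amino acids. Its levels in the 2i/LIF arm were 40.0 and 44.2 CPM at 0 h, 40.0 and 36.6 at 12 h, 52.5 and 52.3 at 24 h, and 54.6 and 59.8 at 40 h. The serum arm libraries gave 80.7 and 70.9, 54.1 and 58.3, 58.1 and 57.8, and 64.1 and 68.3 CPM. The medium with serum thus began highest of all groups and ended lower, while the 2i/LIF arm ended higher than it began. At 40 h the log2 fold change was 0.44 ± 0.09 (SE) in the 2i/LIF arm (edgeR, adjusted p = 4.39e-06) and -0.20 ± 0.07 in the serum arm (adjusted p = 0.00839). The second of these calls was lost without replicate 1 of the serum arm at 0 h (-0.10, adjusted p = 0.295) or at 40 h (-0.15, adjusted p = 0.119), and with library size only (-0.12) or DESeq2 (-0.17). At 24 h the values were 0.31 ± 0.09 and -0.39 ± 0.07 (edgeR, adjusted p = 0.00173 and 1.28e-06), and the first of these was lost without replicate 1 of the 2i/LIF arm at 0 h (0.24, adjusted p = 0.0576). A match to TGACNNNGC, TGACGTGGC, starts 1 base before an annotated start of Slc7a6 and 68 bases before another. Among the members with windows, Slc7a1 also held this motif, on the opposite strand (GCGCTGTCA), starting 11 bases before an annotated start.

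Slc7a8 (Entrez 50934, chr14:54722215-54781886, minus strand), which encodes LAT2, an exchanger of neutral amino acids, fell. In the 2i/LIF arm the libraries were at 14.99 and 13.2 CPM at 0 h, 2.74 and 4.95 at 12 h, 3.47 and 2.58 at 24 h, and 4.01 and 5.30 at 40 h. From the serum arm they were at 7.35 and 6.61, 5.14 and 2.45, 2.99 and 3.06, and 4.65 and 4.65 CPM. Every library after 0 h lay below those of its medium at 0 h, but counts were as low as 17 and the later times overlapped in part. The log2 fold change at 40 h was -1.60 ± 0.22 (SE) in the 2i/LIF arm (edgeR, adjusted p = 1.68e-10) and -0.58 ± 0.23 in the serum arm (adjusted p = 0.0204). The latter call was lost without replicate 1 at 0 h (-0.51, adjusted p = 0.116), without either 40 h library (-0.58 each) and with DESeq2 (-0.56). At 12 h in the serum arm the fall of 0.93 ± 0.26 (edgeR, adjusted p = 0.00136) was lost without replicate 2 at 12 h (-0.44, adjusted p = 0.234).

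The cationic carriers each had a time course of their own. Slc7a3 (Entrez 11989, chrX:101079146-101090452, minus strand) encodes CAT3. Its 2i/LIF libraries gave 145 and 139 CPM at 0 h, 482 and 484 at 12 h, 578 and 577 at 24 h, and 333 and 352 at 40 h. Its serum arm levels were 138 and 129.98, 501 and 529.6, 614 and 595, and 301 and 291 CPM. As with Slc7a7, the peak was at 24 h in both media and no times overlapped within a medium. Its log2 fold change was 1.77 ± 0.04 (SE) at 12 h in the 2i/LIF arm and 1.94 ± 0.04 in the serum arm (edgeR, adjusted p = 1.18e-67 and 7.42e-73). At 24 h it was 2.03 ± 0.04 and 2.17 ± 0.04, and at 40 h 1.27 ± 0.04 and 1.15 ± 0.04. The last step was a fall of 0.75 ± 0.04 in the 2i/LIF arm and of 1.03 ± 0.04 in the serum arm (edgeR, adjusted p = 1.06e-36 and 2.05e-50). Snx12 overlaps Slc7a3 on the same strand but shares 0 annotated exon bases with it, and its group means ran only from 42.0 to 57.0 CPM.

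Slc7a1 (Entrez 11987, chr5:148327410-148399904, minus strand), which encodes CAT1, the widely expressed arginine and lysine carrier, went opposite ways in the media. In the 2i/LIF arm it was at 270.0 and 258 CPM at 0 h, 236 and 245 at 12 h, 199 and 184 at 24 h, and 204 and 250.97 at 40 h. From the serum arm it was at 266 and 264, 253 and 271, 387 and 391, and 382 in each library. The arms overlapped at 0 h and at no later time, and all 4 libraries from the serum arm at 24 and 40 h were high. At 12 h the difference between the arms was 0.12 (log2, 95% interval -0.01 to 0.25) and was not called (edgeR, adjusted p = 0.144), though it was with only the groups compared (adjusted p = 0.0119), with no filter (0.025) and without replicate 1 of the serum arm at 12 h (0.17, adjusted p = 0.0478). In the 2i/LIF arm the log2 fold change was -0.46 ± 0.07 (SE) at 24 h (edgeR, adjusted p = 2.62e-06) and -0.22 ± 0.06 at 40 h (adjusted p = 0.00487). The 40 h call was lost without replicate 1 at 0 h (-0.19, adjusted p = 0.0532), without replicate 1 at 40 h (-0.07, adjusted p = 0.209) and with library size only (-0.15). The serum arm gave 0.55 ± 0.06 at 24 h and 0.53 ± 0.06 at 40 h (edgeR, adjusted p = 2.74e-08 and 4.47e-08).

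Slc7a2 (Entrez 11988, chr8:40862341-40922070, plus strand), which encodes CAT2, was the scarcest cationic carrier. The 2i/LIF libraries lay at 6.72 and 3.95 CPM at 0 h, 5.21 and 4.68 at 12 h, 3.19 and 2.58 at 24 h, and 3.26 and 6.66 at 40 h. The libraries from the serum arm lay at 14.1 and 10.4, 6.76 and 8.84, 2.99 and 3.67, and 6.12 and 5.90 CPM. It was highest in the serum arm at 0 h and lowest at 24 h in both media, and replicates of the 2i/LIF arm at 0 and 40 h spread widely. In the serum arm it fell by 1.87 ± 0.23 (SE, log2) at 24 h and by 1.03 ± 0.20 at 40 h (edgeR, adjusted p = 6.20e-12 and 2.51e-06). For the 2i/LIF arm the fall was 0.85 ± 0.32 at 24 h (edgeR, adjusted p = 0.0159), a call lost without replicate 1 at 0 h (-0.45) or replicate 2 at 24 h (-0.71), and its change of -0.10 at 40 h had a 95% interval of -0.65 to 0.44. The 12 h fall in the serum arm, 0.63 ± 0.20 (edgeR, adjusted p = 0.00446), was lost without replicate 1 at 0 h (-0.40), without replicate 1 at 12 h (-0.46) and with DESeq2 (-0.64, adjusted p = 0.0834).

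The media were then compared at each time. At 0 h, 2 members were higher in the serum arm and 2 were lower, 4 of 9 in all, where 33.0% of all genes were called. Slc7a2 was higher by 1.22 ± 0.23 (log2, SE) and Slc7a6 by 0.84 ± 0.08 (edgeR, adjusted p = 8.32e-06 and 8.67e-16). Slc7a7 was lower by 0.66 ± 0.13 and Slc7a8 by 1.01 ± 0.21 (adjusted p = 2.90e-05 and 3.28e-05). Of those not called, the differences of Slc7a1 (95% interval -0.12 to 0.14), Slc7a5 (-0.13 to 0.05), Slc7a3 (-0.18 to 0.02) and Slc3a2 (-0.19 to -0.01) had narrow bounds, whereas that of Slc7a11 reached from -1.19 to 0.05. Without replicate 2 of the serum arm, Slc3a2 was called lower (-0.15, adjusted p = 0.0279).

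At 12 h, 6 members were higher in the serum arm and 0 lower, where 30.3% of all genes were called and 14.8% were higher. The Slc7a6 difference was 0.56 ± 0.08 (SE) and that of Slc7a7, which had been lower at 0 h, was 0.31 ± 0.05 (edgeR, adjusted p = 2.21e-08 and 3.79e-07). Slc7a5 differed by 0.14, Slc3a2 by 0.11 and Slc7a3 by 0.09, and Slc7a2 by 0.68 ± 0.24 (edgeR, adjusted p = 0.0025, 0.0291, 0.0428 and 0.0204). The number called was 3 with DESeq2, without replicate 1 of the 2i/LIF arm at 12 h and without replicate 2 of the serum arm at 12 h.

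The largest difference between the arms within the set came at 24 h, in Slc7a11. At that time 5 members were higher in the serum arm and 0 lower, where 31.1% of all genes were called and 14.1% were higher. The cystine exchanger gene Slc7a11 was higher by 1.63 ± 0.12 (log2, SE; edgeR, adjusted p = 1.85e-23), or 3.10-fold, and Slc7a1 by 1.02 ± 0.06 (adjusted p = 8.49e-12), or 2.03-fold. Slc3a2 was higher by 0.63 ± 0.04, Slc7a5 by 0.36 ± 0.04 and Slc7a7 by 0.31 ± 0.05 (edgeR, adjusted p = 2.82e-29, 3.57e-14 and 6.09e-08). For Slc7a3 the difference was 0.07 (95% interval -0.01 to 0.14) and for Slc7a6 0.15 (-0.01 to 0.30), while those of Slc7a8 (-0.64 to 0.62) and Slc7a2 (-0.44 to 0.84) were poorly bounded.

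At 40 h, 5 members were higher and 1 was lower, where 27.3% of all genes were called. Slc7a1 was higher by 0.75 ± 0.06 and Slc7a11 by 0.73 ± 0.10 (log2, SE; edgeR, adjusted p = 1.36e-09 and 6.56e-10). The heavy chain gene Slc3a2 was higher by 0.33 ± 0.04 and Slc7a5 by 0.20 ± 0.04 (adjusted p = 1.39e-12 and 7.22e-06). Slc7a3 was lower by 0.21 ± 0.04 (adjusted p = 7.73e-06). The Slc7a6 call (0.21 ± 0.07, adjusted p = 0.0176) was lost without replicate 1 of the 2i/LIF arm (0.15) or replicate 2 of the serum arm (0.16) and with DESeq2.

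**Figure D3:**
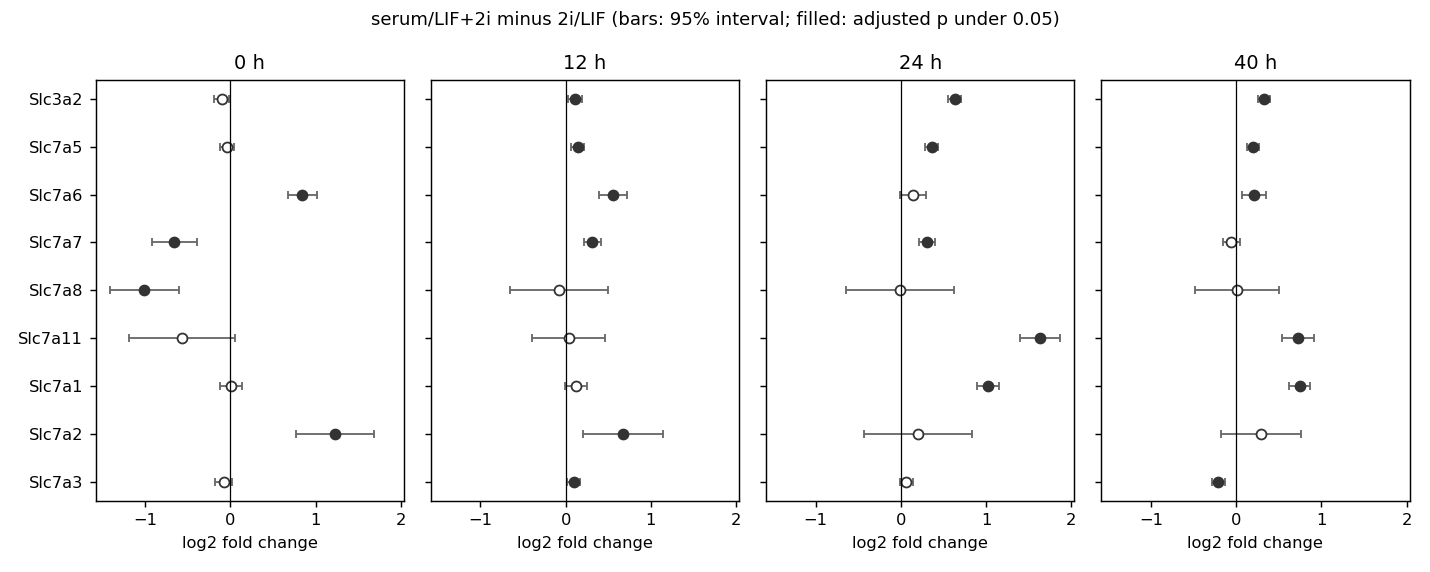
Difference between the media for each member at each time, as log2 fold change of serum/LIF+2i over 2i/LIF with 95% intervals. Filled points passed the edgeR test at an adjusted p under 0.05. At 24 h Slc7a11 and Slc7a1 stand at 1.63 and 1.02, and Slc7a2 and Slc7a6 stand to the right of 0 at 0 and 12 h.

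Whether the exit effect itself differed between the media was tested as an interaction, the change in the serum arm minus the change in the 2i/LIF arm. It was called for 3 members at 12 h (9.20% of all genes), for 7 at 24 h (20.8% of all genes) and for 8 at 40 h (27.6% of all genes). The 12 h count was 1 with DESeq2 and without replicate 1 of the 2i/LIF arm at 12 h. At 24 h the difference was 2.20 ± 0.34 (log2, SE) for Slc7a11, 1.01 ± 0.09 for Slc7a1 and 0.74 ± 0.06 for Slc3a2 (edgeR, adjusted p = 9.34e-08, 1.07e-08 and 2.72e-20). For Slc7a6 it was -0.70 ± 0.12 (adjusted p = 5.05e-07). Slc7a3 was the only member not called at any of the 3 times, with 0.18 (95% interval 0.05 to 0.30) at 12 h, 0.15 (0.02 to 0.27) at 24 h and -0.13 (-0.25 to -0.00225) at 40 h. At 12 h it did pass with DESeq2 size factors, with a mean of at least 5 CPM or with only the groups compared (0.18, 0.18 and 0.19), and at 24 h with a mean of at least 5 CPM (0.16), so the media are not shown to act alike on it.

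Levels were compared between genes on a scale per length (TPM here, computed from the counts and the gene lengths in the table). At 0 h in the 2i/LIF arm, Slc3a2 at 161 ± 3.33 TPM (SD, n = 2) and Slc7a5 at 156 ± 8.74 headed the set without differing beyond their spread. Slc7a3 followed at 133 ± 6.20 and Slc7a1 at 81.8 ± 4.18 TPM. Below these came Slc7a6 at 25.1 ± 1.31, Slc7a7 at 17.9 ± 0.0974 and Slc7a8 at 7.78 ± 0.839 TPM. The scarcest were Slc7a2 at 1.52 ± 0.583 and Slc7a11 at 0.975 ± 0.050 TPM. In the serum arm the order at 0 h was nearly the same, with Slc7a5 and Slc3a2 overlapping at the top and Slc7a8 overlapping Slc7a2. At 12 and 24 h Slc7a3 headed the set in both media, at 548 ± 6.58 TPM at 24 h in the 2i/LIF arm and 583 ± 13.0 in the serum arm. By 40 h Slc7a5 was first, at 382 ± 19.8 and 459.6 ± 24.4 TPM, and did not differ beyond its spread from Slc3a2 in the serum arm (441 ± 3.14). Slc7a7 had 3 members above it at all later times in both media. Slc7a11, despite its rise, reached only 6.64 ± 0.430 TPM in the 2i/LIF arm and 11.6 ± 0.847 in the serum arm at 40 h.

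The summed level of the 5 light chain genes rose from 208 ± 8.22 TPM (SD, n = 2) at 0 h to 371 ± 4.53, 439 ± 12.9 and 559 ± 20.7 at the later times in the 2i/LIF arm. For the serum arm it rose from 213 ± 4.67 to 429 ± 4.07, 564 ± 34.9 and 652 ± 24.0 TPM. Slc3a2 lay below this sum in every library. Its ratio to the sum was 0.773 ± 0.0145, 0.578 ± 0.0220, 0.615 ± 0.0232 and 0.597 ± 0.0132 at 0, 12, 24 and 40 h in the 2i/LIF arm, highest at 0 h with no overlap. In the serum arm it was 0.703 ± 0.0221, 0.534 ± 0.0126, 0.753 ± 0.0231 and 0.677 ± 0.0201, lowest at 12 h and highest at 24 h. With 2 libraries a group an exact permutation test cannot give a p below 0.333, and these ratios were not tested in another way. Their height depends on gene length: without lengths they ran from 0.490 to 0.679.

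Which light chain made up this sum also changed. Slc7a5 held 75.1% ± 1.23 (SD, n = 2) of it at 0 h in the 2i/LIF arm, 56.3% ± 0.873 at 24 h and 68.2% ± 1.02 at 40 h. Slc7a7 went from 8.61% ± 0.387 to 35.4% ± 0.493 and back to 23.8% ± 1.37. Slc7a6 was the next light chain at 0 h in each arm, with 12.1% ± 1.11 in the 2i/LIF arm and 21.2% ± 2.05 in the serum arm. In the serum arm Slc7a7 held 5.33% ± 1.09 at 0 h. By 24 h this order had turned in each arm, with Slc7a6 at 7.21% ± 0.140 in the 2i/LIF arm. In the serum arm Slc7a6 was then at 6.30% ± 0.133 and Slc7a7 at 34.6% ± 0.0263. Both encode exchangers of cationic for neutral amino acids. Slc7a11 never held more than 1.78% ± 0.195 as a group mean, and by plain counts, in which its long transcript weighs more, it held up to 4.97%, in the serum arm at 24 h.

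Among the cationic carriers Slc7a3 held the largest share in every group on this scale. Its share of the summed TPM at 0, 24 and 40 h was 61.5% ± 0.251 (SD, n = 2), 90.0% ± 0.480 and 81.8% ± 1.65 in the 2i/LIF arm. For the serum arm it was 59.5% ± 0.658, 82.3% ± 0.461 and 69.9% ± 0.477 at those times, and Slc7a1 held most of the rest, 29.7% ± 0.481 at 40 h. By plain counts, in which its longer transcript weighs more, Slc7a1 led at 0 h with 64.2% in the 2i/LIF arm and 64.5% in the serum arm, and at 40 h in the serum arm with 55.8%. The sum of the 3 carriers peaked at 24 h, at 609 ± 4.06 TPM in the 2i/LIF arm and 708 ± 19.8 in the serum arm, and had come down to 412 ± 29.6 and 439 ± 7.07 at 40 h.

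**Figure D4:**
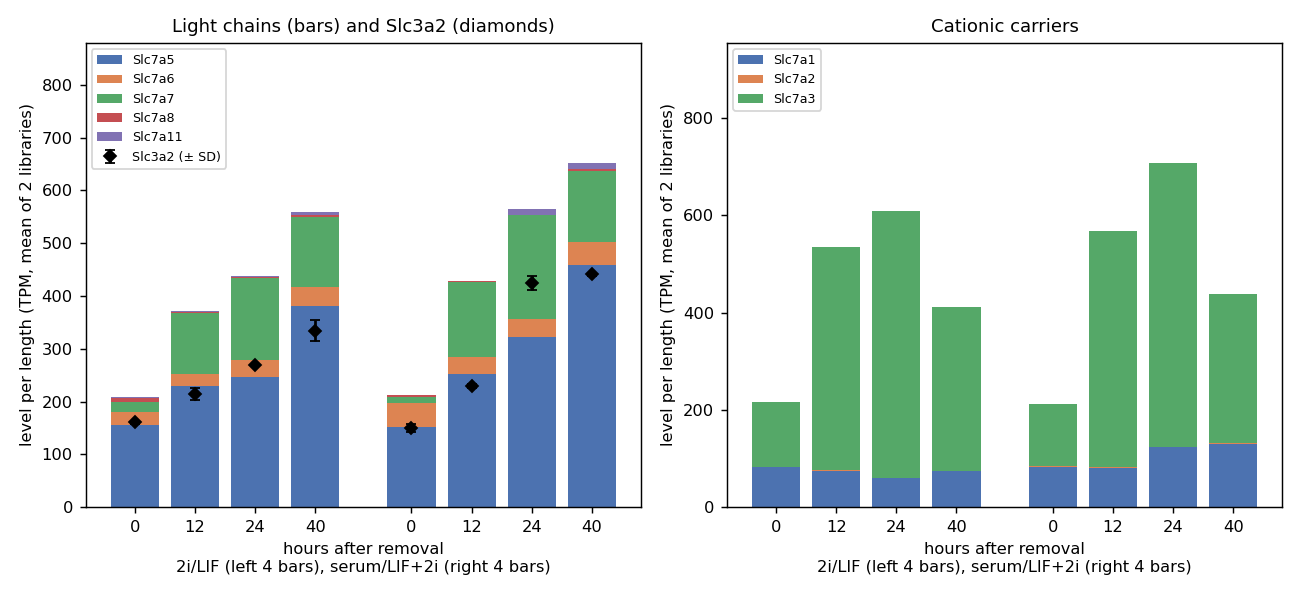
Levels per length (TPM, mean of 2 libraries) of the light chain genes as stacked bars with Slc3a2 as diamonds (bars of 1 SD), and of the cationic carriers as stacked bars, at each time in 2i/LIF (left 4 bars) and serum/LIF+2i (right 4 bars). The light chain sum grew to 559 and 652 TPM at 40 h, while the cationic sum peaked at 24 h at 609 and 708 TPM.

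Likeness between members was described with Pearson's r over the 8 group means of log2 CPM, which share their libraries and the course of time. Slc3a2 was most like Slc7a11 (r = 0.983, Spearman's rho = 0.976) and then Slc7a5 (r = 0.941, rho = 0.905). Slc7a7 and Slc7a3, the genes with a peak at 24 h, had r = 0.941 and rho = 0.929. The most opposite pair was Slc7a8 and Slc7a3, with r = -0.914. Slc7a1 reached at most r = 0.493, with Slc3a2, and Slc7a6 at most 0.468, with Slc7a2. The 2 genes most like each member were then taken from 10695 genes that averaged at least 5 CPM. For Slc3a2 they were Med8 (r = 0.989) and Ensa (0.989), for Slc7a5 Ppp1r9a (0.998) and Top2b (0.990), and for Slc7a11 Gne (0.993) and Arhgef2 (0.992). Slc7a7 was closest to Cass4 (0.994) and Enpp3 (0.991), Slc7a3 to Gfod1 (0.993) and Asxl1 (0.993), and Slc7a8 to Mtmr4 (0.987) and Klhl11 (0.985). The r were lower for Slc7a6 (Pde4a, 0.973, and 1500004A13Rik, 0.942), Slc7a2 (Rpl23, 0.971, and Zc3h13, 0.964) and Slc7a1 (Mbd6, 0.949, and 2610008E11Rik, 0.947).

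Genes next to the members on the chromosome were read for the same groups. Snhg1, a noncoding RNA, has its gene 118 bases from Slc3a2 on the other strand. Its group means were 112 to 203 CPM, highest in the serum arm at 24 h, where Slc3a2 was also highest. Against 0 h Snhg1 was called higher there (0.68, log2) and at 40 h in the 2i/LIF arm (0.18). Slc3a2 rose there too, by 1.46 and 0.99. At 12 h in the 2i/LIF arm Snhg1 was called lower (-0.16), where Slc3a2 rose by 0.40. At 40 h in the serum arm the Snhg1 change of 0.08 was not called, beside 1.42 for Slc3a2. From 24 to 40 h in that arm Snhg1 changed by -0.59 and Slc3a2 by -0.04. Slc7a6os, 1724 bases from Slc7a6, had means of 46.8 to 66.4 CPM. Near Slc7a5 and Slc7a2, BC048644 and Pdgfrl had means of at most 0.587 and 3.98 CPM.

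The genes around these carriers were counted in lists taken from general knowledge. Other SLC3 and SLC7 genes were near absent, since 1 of 8, Slc7a9, passed the filter, Slc7a12 and Slc7a13 had 0 counts in all libraries, and the summed level of the list was at most 4.998 CPM. Transporters that load cells with the amino acids exchangers give out were higher at 40 h in 5 of 5 kept cases in both media, where 34.1% of all genes were higher and 34.7% lower in the 2i/LIF arm and 35.3% each way in the serum arm. Slc38a2, a sodium-coupled importer of small neutral amino acids, rose by 1.57 ± 0.04 (log2, SE) in the 2i/LIF arm and 1.63 ± 0.04 in the serum arm. Slc1a4, a neutral amino acid exchanger, rose by 1.25 ± 0.07 and 2.22 ± 0.07 (edgeR, adjusted p = 8.06e-34 in the 2i/LIF arm).

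Of 25 genes of the amino acid response, which acts through ATF4 when amino acids run short, with no member of the SLC7 set among them, 13 were higher and 2 lower at 24 h in the 2i/LIF arm and 24 were higher and 1 lower in the serum arm, with median log2 fold changes of 0.26 and 0.99 beside 0.0083 and 0.0097 over all genes. Of all genes, 29.2% were higher and 29.6% lower at that time in the 2i/LIF arm, and 32.4% and 32.0% in the serum arm. At 40 h, where the shares of all genes are those given above, it was 21 and 3 in the 2i/LIF arm and 22 and 1 in the serum arm, with medians of 0.85 and 1.18. The response was less marked at 12 h, with 8 higher and 4 lower in the 2i/LIF arm and a median of 0.04. For the serum arm it was then 14 and 3, with a median of 0.28. Of the 9 members, 4 had by then risen in the 2i/LIF arm and 1 had fallen. Those that rose were Slc3a2 (0.40), Slc7a5 (0.54), Slc7a7 (2.66) and Slc7a3 (1.77). Between the media at 24 h, 23 of the 25 were higher in the serum arm and 0 lower, with a median of 0.74 beside -0.0098 over all genes, of which 14.1% were higher. Trib3, a pseudokinase induced by ATF4, was at 46.3 ± 1.69, 57.4 ± 3.69, 56.0 ± 3.37 and 118 ± 5.40 CPM (SD, n = 2) in the 2i/LIF arm and at 36.4 ± 1.15, 63.7 ± 0.343, 187 ± 3.68 and 198 ± 4.58 in the serum arm. Like Slc3a2 and Slc7a11 it was highest in the serum arm libraries of 24 and 40 h. Chac1, which degrades glutathione, rose by 3.49 ± 0.11 and 4.03 ± 0.10 at 40 h (edgeR, adjusted p = 6.16e-59 in the 2i/LIF arm). Asns, the asparagine synthetase gene and a member of the same list, fell by 1.39 ± 0.04 and 1.49 ± 0.04.

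Genes that use the carried amino acids moved in both directions, as did genes in general at 40 h (34.1% higher and 34.7% lower in the 2i/LIF arm, 35.3% each in the serum arm). For glutathione and cystine, 6 of 17 were higher and 9 lower at 40 h in the 2i/LIF arm, and 6 and 8 in the serum arm, with medians of -0.30 and 0.02. While Slc7a11 rose, glutathione synthetase (Gss) fell by 2.73 ± 0.07 (log2, SE) and 2.29 ± 0.07, and Cbs, the entry to cysteine synthesis, by 2.07 ± 0.08 and 2.11 ± 0.08. Txnrd1, a thioredoxin reductase, rose by 0.90 ± 0.04 and 0.82 ± 0.04. For arginine and polyamines, 10 of 14 kept genes were higher and 3 lower at 40 h in the 2i/LIF arm, and 9 and 3 in the serum arm. Odc1, which makes the first polyamine from ornithine, rose by 1.44 ± 0.04 and 1.14 ± 0.04, whereas Ass1, which makes the precursor of arginine, fell by 2.70 ± 0.12 and 2.32 ± 0.11. For leucine use and sensing, 6 of 17 were higher and 5 lower in the 2i/LIF arm and 10 and 4 in the serum arm. Bcat1, a transaminase of branched-chain amino acids, was lower by 1.17 ± 0.04 and 1.18 ± 0.03. Of the others named from this list, Bcat2 rose by 0.70 ± 0.05 and 0.66 ± 0.05 and Lars by 0.75 ± 0.04 and 0.91 ± 0.04. Castor2, which the list also holds, is related to an arginine sensor and is not a leucine sensor. Its rise was 2.56 ± 0.17 and 2.68 ± 0.15. These named genes had edgeR adjusted p of at most 1.09e-25 in the 2i/LIF arm.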

How the data were processed

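The authors deposited whole-number read counts per gene, with gene lengths and not normalized, in 1 table of 16 libraries, per the file headers. Libraries were made with a stranded mRNA kit, per the labels' protocols. Reads were handled with fastp, STAR and featureCounts on mm10, per the submitters' processing notes, and annotation and strand setting are not given in the sources used here. Groups and replicate numbers came from sample titles; the titled 12 h samples from serum/LIF+2i were used although the protocol names 24 or 40 h for that medium. Every value column belonged to a library. Genes were kept with filterByExpr (minimum count 10, total 15), which left 14288. All libraries entered 1 fit with a term per group (edgeR 4.0.16, R 4.3.3, TMM scaling, robust quasi-likelihood F test, two-sided, 8 residual degrees of freedom, common biological coefficient of variation 3.19%). Benjamini-Hochberg adjustment ran over all kept genes in each of 17 comparisons. DESeq2 1.42.0 was an alternative. Genes named beside the members were the 2 most like each by Pearson's r, overlapping genes or the nearest one within 5 kb, and from each list up to 4 genes with the smallest mean p rank at 40 h (any gene of lists of up to 8). Gene spans and distances to neighbours are those of RefSeq on GRCm38 (mm10), and strands and exon bases are those of GENCODE. Of the 9 members, 6 had promoter windows in the RefSeq set used. Slc7a5, Slc7a2 and Slc7a3 had none and were not searched for motifs. The members and gene lists were chosen with earlier results of these data known. The procedure was tested on simulated data. Same-numbered replicates did not deviate together (28 pairs of groups, r of -0.023 to 0.033), so numbers were not taken as pairs. Intervals of fold changes come from the fit and its spread between libraries, and the floor covers counting error only.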

Additional observations from a re-analysis of the deposited data

Results flagged for a closer look

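By the interaction test, 18 exit effects of members were unequal between the arms, given as the log2 change in the serum arm minus that in the 2i/LIF arm. Each value thus also depends on the difference between the arms at 0 h, which was called for Slc7a2, Slc7a6, Slc7a7 and Slc7a8. With 2 libraries a group, single libraries could not be tested as outliers. For the heavy chain gene Slc3a2 the values at 12, 24 and 40 h were 0.21, 0.74 and 0.43. For Slc7a5 they were 0.18, 0.40 and 0.24. The 12 h values of both genes were lost with DESeq2 (adjusted p = 0.0643 and 0.122), and that of Slc7a5 also with library size only (0.17, adjusted p = 0.0594). Without single libraries they were lost too: for Slc3a2 without replicate 1 of the 2i/LIF arm at 12 h (0.17), replicate 1 of the serum arm at 0 h (0.17) or replicate 2 of the serum arm at 12 h (0.17), and for Slc7a5 without these libraries (0.18, 0.16 and 0.17) or replicate 1 of the 2i/LIF arm at 0 h (0.15).

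For Slc7a7 they were 0.97, 0.97 and 0.60, and the last was lost without replicate 1 of the serum arm at 0 h (0.40, adjusted p = 0.0781). For Slc7a11 it was 2.20 at 24 h and 1.29 at 40 h. For Slc7a1 it was 1.01 and 0.74, with a rise in the serum arm and a fall in the 2i/LIF arm. For Slc7a6 it was -0.70 and -0.63, with the directions the other way round.

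The values of the low-count genes were less firm. Slc7a8 had group means of 14.1 CPM in the 2i/LIF arm and 6.98 CPM in the serum arm at 0 h. At 24 h they were 3.03 and 3.02 CPM, and at 40 h 4.65 CPM in each. The interaction for Slc7a8 was 1.00 at 24 h and 1.02 at 40 h. The 24 h value was lost with DESeq2 and without any one of replicate 1 at 0 h or either 24 h library of the 2i/LIF arm, or of replicate 2 at 0 h or either 24 h library of the serum arm (0.81 to 1.23). The 40 h value was lost with DESeq2 and without replicate 1 of the 2i/LIF arm at 40 h (0.82, adjusted p = 0.0915). For Slc7a2 it was -0.92 at 40 h, lost with DESeq2, without replicate 2 of the 2i/LIF arm at 0 h (-0.57) or 40 h (-0.34), replicate 1 of the serum arm at 0 h (-0.69) or either 40 h library of the serum arm (-0.95 and -0.90).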

How the results depend on the processing

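Of 1791 member values recomputed, 1663 kept direction and side of the threshold, 86 lost a call, 20 gained one and 22 changed sign. The replicate block changed 0 of 153 calls, and with it Slc3a2 at 40 h in the 2i/LIF arm gave 0.99. The 6 members called between media at 12 h became 3 with DESeq2 (3 to 7 leaving out a library), and the 3 interactions at 12 h became 1 (1 to 4). Causes were not tested. Without gene lengths the heavy to light ratios were 0.654, 0.528, 0.566 and 0.526 in the 2i/LIF arm and 0.589, 0.490, 0.679 and 0.585 in the serum arm. Sign changes were all in values not called: Slc7a1 at 12 h in the serum arm without a filter (0.0056); Slc3a2 and Slc7a1 from 24 to 40 h in the serum arm with library size only (0.0032 and 0.019); Slc7a8 between media at 24 h with library size only, at least 5 CPM or only the groups compared (0.015, 0.0048 and 0.0050) and at 40 h with the last (-0.0030). Leaving out 1 library gave ranges across 0 for Slc7a2 at 12 and 40 h in the 2i/LIF arm (-0.44 to 0.32 and -0.69 to 0.34), Slc7a1 at 12 h in the serum arm (-0.068 to 0.039), from 12 to 24 h Slc7a8 in the 2i/LIF arm (-0.70 to 0.14) and in the serum arm (-0.76 to 0.30) and Slc7a6 there (-0.0090 to 0.098), and between media Slc7a1 at 0 h (-0.031 to 0.031), Slc7a8 and Slc7a11 at 12 h (-0.65 to 0.41 and -0.042 to 0.13), Slc7a8 at 24 and 40 h (-0.20 to 0.22 and -0.19 to 0.21) and Slc7a2 at 40 h (-0.15 to 0.88). Low counts limit Slc7a2, Slc7a8 and, at 0 and 12 h, Slc7a11.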
